A study of Homo sapiens with 32 samples.

Results

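Interleukin 13 (IL-13) was given to maturing spheroids of the EPC2 line, and the transcripts of treated and untreated spheroids were compared at day 11 (D11), when they are mature. EPC2 is a human esophageal epithelial line immortalised with telomerase, of WT genotype, so all libraries come from 1 line. The members of the comparison were all libraries labelled D11, 13 of the 32 in the series, and the other 19 were monolayers and D3 spheroids. Each spheroid culture was started from 40000 cells in 20 µl of Matrigel, and both groups were kept in a serum-free keratinocyte medium whose calcium was set to 0.6 mM with CaCl2. The 6 treated libraries came from spheroids that had received IL-13 at 20 ng/ml from day 3 to day 11, and the 7 untreated libraries received none. The spheroids came from 2 independent experiments, labelled as batches. Of the untreated libraries, 1, 2, 3 and 5 belong to batch 1 and 4, 6 and 7 to batch 2. Of the treated samples 5 belong to batch 1 and 1 to batch 2. The data columns of the treated libraries are numbered 1 to 6 and could be matched to the group but not to single samples. The labels do not say that libraries of a batch came from separate cultures, so p-values measure the spread between these libraries, which may be technical.

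IL-13 is a cytokine of type 2 immunity, made by T helper cells and innate lymphoid cells. It binds a receptor of the chains IL13RA1 and IL4R, whose Janus kinases phosphorylate the transcription factor STAT6. In the esophagus it is the main epithelial signal of eosinophilic esophagitis, an allergic disease with basal layer expansion, loss of barrier proteins and recruitment of eosinophils by epithelial chemokines.

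Values are TPM (transcript abundance scaled to the library total), which also correct for transcript length, so levels of different genes can be set side by side. The read depth is unknown. Values in parentheses are the lowest to highest library with IL-13 (n = 6) against the lowest to highest untreated library (n = 7), and medians are named as such. A signed value with ± is the difference of log2(TPM + 1), IL-13 minus untreated, with its SE. On this scale the changes of genes with low levels come out too small. Adjusted p-values are from limma with Benjamini-Hochberg adjustment over all 10989 genes tested, at a threshold of 0.05, and a gene is said to have risen or fallen only where it passed. In these bulk samples, fewer cells of a type and less RNA per cell cannot be told apart.

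**Figure D1:**
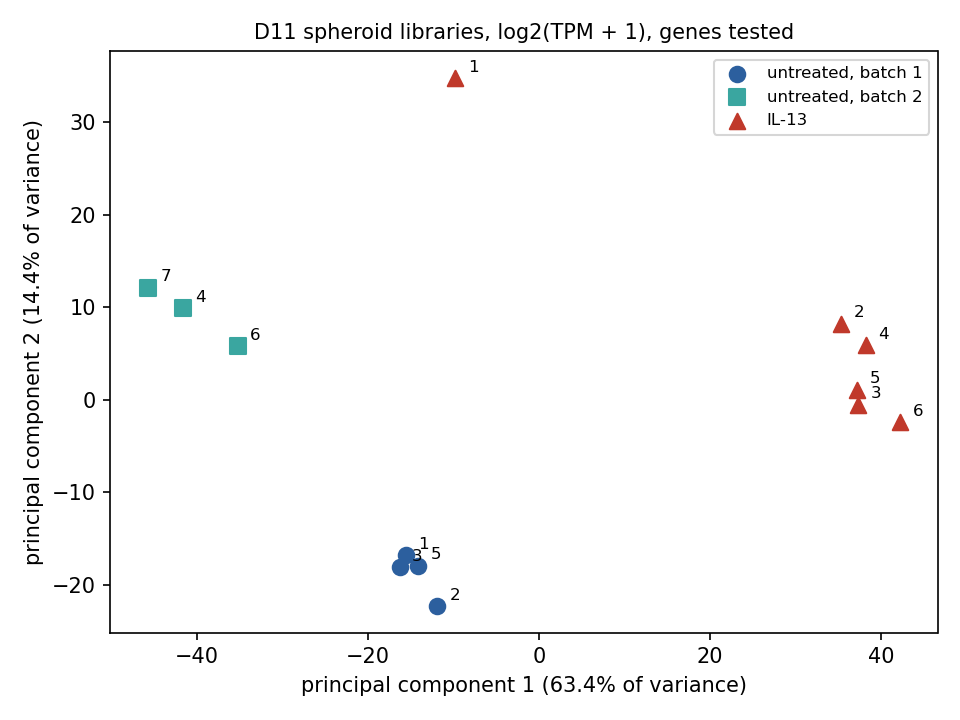
Principal components of log2(TPM + 1) over the genes tested. Each point is 1 library with its number, coloured by group and, for untreated libraries, by batch. IL-13 libraries 2 to 6 lie between 35.3 and 42.2 on the first component, and IL-13 library 1 lies apart from them at -9.78.

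IL-13 library 1 stood apart from the other 5 treated libraries. Over the genes tested it correlated at r = 0.962 to 0.974 with them, whereas the other 5 correlated at 0.982 to 0.990 with one another. With untreated libraries, IL-13 library 1 correlated at 0.963 to 0.969 in batch 1 and at 0.972 to 0.976 in batch 2. The treated batch 2 sample cannot be named from the columns, so batch entered the test as the share of its group for every treated library. Untreated spheroids differed between batches in 5056 of 10989 genes (46.0%), with 591 higher and 4465 lower in batch 2. IL-13 library 1 was the lowest treated library in 232 of the 312 genes raised at least 2-fold and the highest in 89 of the 152 genes lowered at least 2-fold. Keratins made up 14.5% ± 3.14 of TPM with IL-13 and 15.8% ± 2.14 without, and mitochondrially encoded transcripts 21.0% ± 4.75 and 21.9% ± 3.98 (SD). These differences, -1.28 and -0.978 percentage points, did not pass an exact two-sided permutation test (p = 0.397 and 0.696, adjusted p = 0.696 for both).

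IL-13 changed 4522 of 10989 genes (41.2%), raising 3483 (31.7%) and lowering 1039 (9.45%). The counts of each gene list below are to be read beside these shares. Most changes were small: 312 rose and 152 fell at least 2-fold, and 60 rose and 20 fell at least 4-fold. Treated and untreated libraries were fully separated, with no overlap, for 1600 genes (14.6%), of which 1130 were higher and 470 lower with IL-13. The median change over all genes was 0.17. Median-of-ratios rescaling, which brings the typical gene of each library to 1 level, shifted it by -0.17. It gave 2049 raised and 2244 lowered genes, so that 47.7% of calls were rises in place of 77.0%. For gene lists the counts after this rescaling (rescaled) are given where they differ by over 1.5 times. Without IL-13 library 1, 7019 genes passed, 5811 raised and 1208 lowered. List counts without that library are to be read beside these counts of all 10989 genes. IL-13 libraries 2 to 6 against untreated batch 1 alone gave 6022 calls, which held 4429 of the 4522 in the same direction and 0 in the opposite one. These libraries are also part of the main fit, so the calls are not independent and their match is no separate support.

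**Figure D2:**
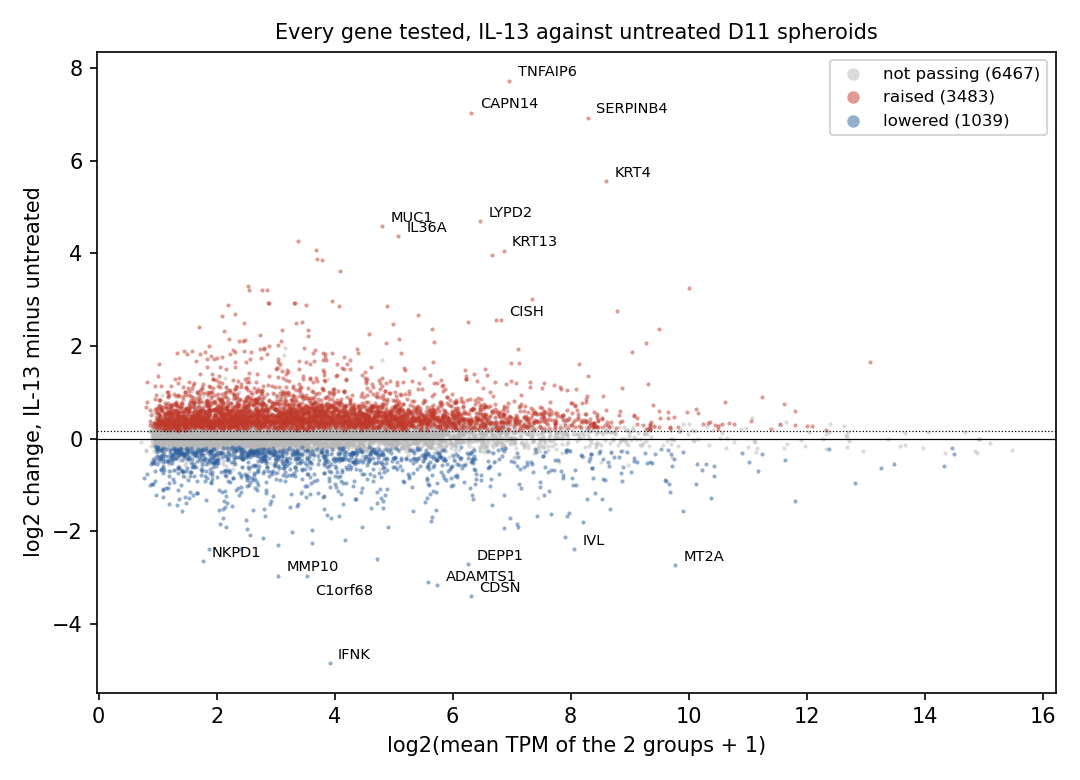
Log2 change of every gene tested against its level, log2 of the mean TPM of both groups + 1. Red and blue points are the 3483 raised and 1039 lowered genes, and the dotted line is the median change of all genes, 0.17. The largest changes are rises, led by TNFAIP6 and CAPN14.

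The libraries carried a keratinocyte profile. KRT5, the keratin of basal cells, stood at 24530.1 to 32674 TPM with IL-13 (median 26156) and 21389 to 32009 TPM without (median 25030.4). Its partner KRT14 stood at 23795 to 40954 TPM with IL-13 (median 28671) and 24467 to 38298 TPM without (median 33001). Neither passed the test (0.15 ± 0.087 and -0.0093 ± 0.12, adjusted p = 0.19 and 0.96), and the sign of both differed between scalings. KRT5 was called raised after quantile normalization (0.40). Several defining markers of other cell types were at or near 0, while other genes of the same lists were abundant. The leukocyte gene PTPRC, the fibroblast gene DCN and the T cell gene CD3E did not exceed 0.1 TPM in any of the 13 libraries. The endothelial gene PECAM1 was listed at 0 in all of them. EPCAM, counted both as a marker of esophageal epithelial identity and in the columnar list, did not exceed 0.3 TPM. Of that identity set, KRT4 and KRT13 averaged 15.6 and 11.4 TPM in untreated spheroids, and TP63 and SOX2 averaged 11.8 and 46.0 TPM.

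Of the fibroblast list 1 of 12 genes was tested, the collagen gene COL1A1, which fell (21.9 to 46.9 against 57.9 to 78.1 TPM, -0.96 ± 0.15). Of the immune and endothelial list 3 of 20 were tested. CD68, a lysosomal protein of macrophages, fell (299.8 to 345 against 399 to 480.1 TPM), and CSF1R (89.6 to 108 against 71.5 to 93.9 TPM) and CD14 (22.3 to 122 against 10.0 to 58.8 TPM), also genes of macrophages, were called raised. Both of these calls were lost after rescaling, with quantile normalization and with mitochondrial genes removed. The call of CD14 also ended with a pseudocount of 0.1, without the low-value filter and against untreated batch 1 alone. It ended too without any 1 of untreated libraries 1, 2, 3, 4, 5 and 7 and IL-13 libraries 2 to 6. That of CSF1R also ended against untreated batch 2 alone and with all 32 libraries in the fit. Of the columnar, goblet and ciliated list 4 of 27 were tested. The simple-epithelium keratin KRT8 rose (10.7 to 15.6 against 5.2 to 7 TPM), as did the factor GATA6, while KRT19 was called raised (785 to 945 against 648 to 948 TPM). The KRT19 call was lost after rescaling, without the batch term and with all 32 libraries in the fit. It was also lost without untreated library 2 or 5 or IL-13 library 2. Against untreated batch 2 alone KRT19 stood at -0.016. The part of other cell types in the results was not tested. KRT18 was called lowered (42 to 70.9 against 52.3 to 102 TPM), a call lost without the batch term or without untreated library 1 or 2. Against untreated batch 2 alone KRT18 stood at 0.074.

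The receptor chains did not pass the test as deposited, while intracellular inhibitors of cytokine signalling moved in both directions. IL4R stood at 8.4 to 12.3 TPM with IL-13 (median 11.7) and 11.1 to 13.8 TPM without (median 12.1). IL13RA1 stood at 5.9 to 10.7 TPM with IL-13 (median 9) and 7.2 to 10.1 TPM without (median 9). Their changes were -0.20 ± 0.09 and -0.10 ± 0.11 (adjusted p = 0.094 and 0.49), and after rescaling both were called lowered, at -0.38 and -0.28. The decoy receptor IL13RA2 did not exceed 0.1 TPM and the common gamma chain IL2RG did not exceed 1 TPM in either group, and neither was tested. Of 14 tested genes of the receptor and JAK-STAT list 4 rose and 1 fell (rescaled 2 and 3), with a median of 0.06. The kinase TYK2 rose (7.8 to 10.7 against 5.3 to 7.1 TPM, 0.55 ± 0.092), with no overlap between groups. STAT6 (19.9 to 34.2 against 15.6 to 24.2 TPM, 0.35 ± 0.11), STAT3 (0.39 ± 0.12) and the kinase JAK2 (0.25 ± 0.08) rose less, with overlap. STAT6 and JAK2 did not pass after rescaling. None of STAT6, STAT3 and JAK2 passed with quantile normalization, with mitochondrial genes removed or against untreated batch 1 alone. JAK2 did not pass against untreated batch 2 alone either. Leaving out 1 library ended the call of STAT6 (untreated 3 or 5, IL-13 3 or 4), STAT3 (untreated 5) and JAK2 (untreated 1 or 2, IL-13 6). The insulin receptor substrate IRS1, a docking protein of the IL-4 receptor, fell (1.7 to 2.4 against 3.9 to 5.7 TPM, -0.91 ± 0.10) with complete separation of the groups.

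Of 21 tested feedback inhibitors 4 rose and 8 fell (rescaled 3 and 14). CISH, a STAT-induced inhibitor of the SOCS family, stood at 118 to 232 TPM with IL-13 (median 204) and 27.4 to 34 TPM without (median 31.8). The change was 2.56 ± 0.14 (adjusted p = 1.1e-08). SOCS1, which blocks Janus kinases, stood at 146 to 211 TPM with IL-13 (median 205) and 47.4 to 73.9 TPM without (median 57). Its change was 1.64 ± 0.12 (adjusted p = 1.9e-07). Both were higher in each of the 6 treated libraries than in any untreated one, and in both the lowest treated library was IL-13 library 1. The phosphatase PTPN6 also rose (7.4 to 12.7 against 3.7 to 5.6 TPM, 0.99 ± 0.11). SOCS3, the family member that restrains STAT3, was called lowered (2.4 to 9 against 8.1 to 13.3 TPM, -0.82 ± 0.25), with overlapping groups. That call ended without untreated library 1, against untreated batch 2 alone and with all 32 libraries in the fit.

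The other named falls were inhibitors of MAP kinase signalling. The phosphatase DUSP4, which acts on nuclear MAP kinases, stood at 5.8 to 8.4 TPM with IL-13 (median 6.8) and 22.3 to 26.7 TPM without (median 24.6), a change of -1.66 ± 0.089 (adjusted p = 1.1e-08). DUSP1 (83.4 to 177 against 290.3 to 467 TPM, -1.60 ± 0.16) and DUSP6 (39.7 to 75.2 against 91.6 to 194 TPM, -1.43 ± 0.13) fell by similar amounts. The receptor tyrosine kinase antagonist SPRY4 fell too (7.4 to 17.1 against 21.9 to 32.1 TPM, -1.30 ± 0.15). The groups did not overlap in any of these 4 genes.

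CISH lies at chr3:50606490-50611831 (hg38). Its promoter is shown because it holds 4 paired half-sites of the kind that STAT proteins bind, together with those of POSTN and CALHM5, each of which holds 1. The windows are the 250 bases before the RefSeq start on GRCh38.p14. They lie at chr3:50611775-50612024 (CISH, minus strand), chr13:37598769-37599018 (POSTN, minus strand) and chr6:116511389-116511638 (CALHM5, plus strand). Capitals mark TTCNNNGAA, the spacing bound by most STAT proteins, or TTCNNNNGAA, the spacing that STAT6 prefers. Both motifs read the same on either strand.
CISH: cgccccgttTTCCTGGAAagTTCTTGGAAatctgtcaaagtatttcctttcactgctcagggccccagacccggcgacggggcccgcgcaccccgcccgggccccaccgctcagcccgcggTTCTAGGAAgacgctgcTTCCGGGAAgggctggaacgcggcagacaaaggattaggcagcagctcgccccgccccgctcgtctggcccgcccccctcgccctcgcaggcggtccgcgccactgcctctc
POSTN: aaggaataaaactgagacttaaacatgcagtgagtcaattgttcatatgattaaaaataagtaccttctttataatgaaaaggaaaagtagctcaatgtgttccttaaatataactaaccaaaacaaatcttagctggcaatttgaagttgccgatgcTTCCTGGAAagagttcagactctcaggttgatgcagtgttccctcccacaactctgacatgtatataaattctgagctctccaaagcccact
CALHM5: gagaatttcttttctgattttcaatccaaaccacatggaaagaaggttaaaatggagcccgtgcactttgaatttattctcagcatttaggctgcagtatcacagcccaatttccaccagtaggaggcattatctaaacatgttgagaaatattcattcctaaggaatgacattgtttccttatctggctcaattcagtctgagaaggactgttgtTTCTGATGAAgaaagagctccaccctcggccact
In CISH the 4 matches of TTCNNNGAA start at positions -241, -230, -129 and -112 relative to the start, and in POSTN the match starts at -92. CALHM5, chosen for this display after its values were seen, holds 1 match of TTCNNNNGAA at -34. It encodes a pore protein of the CALHM family and rose (9.3 to 14.3 against 0.1 to 0.6 TPM, 3.21 ± 0.11). TTCNNNNGAA is in 5.38% of all 35116 RefSeq windows of this length and in 3.86% of the 8680 windows of tested genes. It is in 14 of 219 windows (6.39%) of genes raised at least 2-fold and in 4 of 115 (3.48%) of genes lowered at least 2-fold. TTCNNNGAA is in 6.57%, 5.44%, 5.94% and 6.96% of the same 4 sets. Of the 12 largest rises 7 have a window, and 0 of these hold either motif. A match describes the letters in this window and is not a measured binding site.

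Genes known to be induced by IL-13 in esophageal epithelium were among the largest changes. TNFAIP6, a secreted protein that cross-links hyaluronan, stood at 52.3 to 353 TPM with IL-13 (median 265) and 0 to 0.1 TPM without (median 0). The change was 7.72 ± 0.36 (adjusted p = 2.7e-09), and the gene lies at chr2:151357592-151380048. IL-13 library 1, at 52.3 TPM, lay well below IL-13 libraries 2 to 6, at 258 to 353 TPM, and well above every untreated library. CAPN14 is a calcium-dependent protease largely restricted to the esophagus and linked to the risk of eosinophilic esophagitis (chr2:31173056-31233858). It stood at 90.2 to 209 TPM with IL-13 (median 164) and 0.1 to 0.2 TPM without (median 0.2), a change of 7.03 ± 0.16 (adjusted p = 2.5e-12).

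The serpins SERPINB3 and SERPINB4, inhibitors of cysteine and serine proteases, lie side by side on chromosome 18. SERPINB4 (chr18:63637259-63644298) stood at 471 to 830.2 TPM with IL-13 (median 604) and 2.3 to 6.4 TPM without (median 4), a change of 6.93 ± 0.19 (adjusted p = 1.4e-11). SERPINB3 (chr18:63655197-63661963) started from a higher level and stood at 1589 to 2373 TPM with IL-13 (median 1760.2) and 156 to 274 TPM without (median 209), a change of 3.25 ± 0.11 (adjusted p = 7.0e-11). They are close paralogs, so the split between them is uncertain. In both, as in TNFAIP6 and CAPN14, the groups did not overlap and IL-13 library 1 was the lowest treated library. TNFAIP6, CAPN14 and SERPINB4 are among the 12 largest rises, which were picked from genes without overlap, so their separation was given by the selection.

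ANO1, a calcium-activated chloride channel, stood at 6.1 to 13.9 TPM with IL-13 (median 12.8) and 0.6 to 1 TPM without (median 0.7), a change of 2.93 ± 0.16 (adjusted p = 1.3e-08). CA2, a carbonic anhydrase that makes bicarbonate, stood at 698 to 865 TPM with IL-13 (median 750.2) and 100.4 to 139 TPM without (median 110.2), a change of 2.74 ± 0.085 (adjusted p = 3.7e-11). The lysosomal protease CTSC rose as well (48 to 93.3 against 7.8 to 11.9 TPM, 2.66 ± 0.13). All 3 separated the groups completely. Lower levels were reached by the cadherin CDH26 (1.9 to 6.3 against 0.3 to 0.6 TPM, 2.00 ± 0.19) and the matrix protein POSTN (1.1 to 4.7 against 0.1 to 0.2 TPM, 1.83 ± 0.19). FETUB, a protease inhibitor of the fetuin family, rose by 1.23 ± 0.15 (1.4 to 3.9 against 0.5 to 1.3 TPM). The actin-associated protein SYNPO rose from an untreated level that was already clear (27.7 to 38.4 against 13.6 to 18.7 TPM, 1.12 ± 0.083).

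In all, 14 of 19 tested genes of the list raised by IL-13 or in eosinophilic esophagitis rose and 3 fell, with a median of 1.83 against 0.17 over all genes. This list was written from knowledge of the disease with earlier results of these data known. The largest fall in it was that of IGFL1, a growth factor-like peptide (51 to 155 against 236 to 562 TPM, -2.12 ± 0.23). PTHLH, parathyroid hormone-like hormone, fell without overlap (69.8 to 110.3 against 159 to 244 TPM, -1.06 ± 0.11). The neutrophil chemokine CXCL1 fell at a low level, and the groups met at 0.8 TPM (0 to 0.8 against 0.8 to 1.8 TPM, -0.54 ± 0.14).

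Some members of that list, among them the eotaxins, did not reach the filter of 1 TPM in 6 libraries and were not tested. CCL26 (eotaxin-3), the eosinophil chemokine raised in biopsies of this disease, lay at 0.4 to 2.2 TPM with IL-13 and 0 to 0.2 TPM without. Its groups did not overlap, and IL-13 library 1 was the lowest treated one. The related CCL24 lay at 0 to 0.2 and 0 to 0.3 TPM, and the lipoxygenase ALOX15 at 0 to 0.5 and 0 to 0.1 TPM. The steroid dehydrogenase HSD3B1 stood at 0.9 to 1.8 TPM with IL-13 and was listed at 0 in all untreated libraries. LRRC31, a modulator of the epithelial barrier (0 to 1.7 TPM), and the cystatin CST1 (0 to 2.7 TPM) were likewise listed at 0 in all untreated libraries, and in IL-13 library 1 too. The mucus protein FCGBP lay at 0.1 to 0.6 and 0 to 0.1 TPM.

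**Figure D3:**
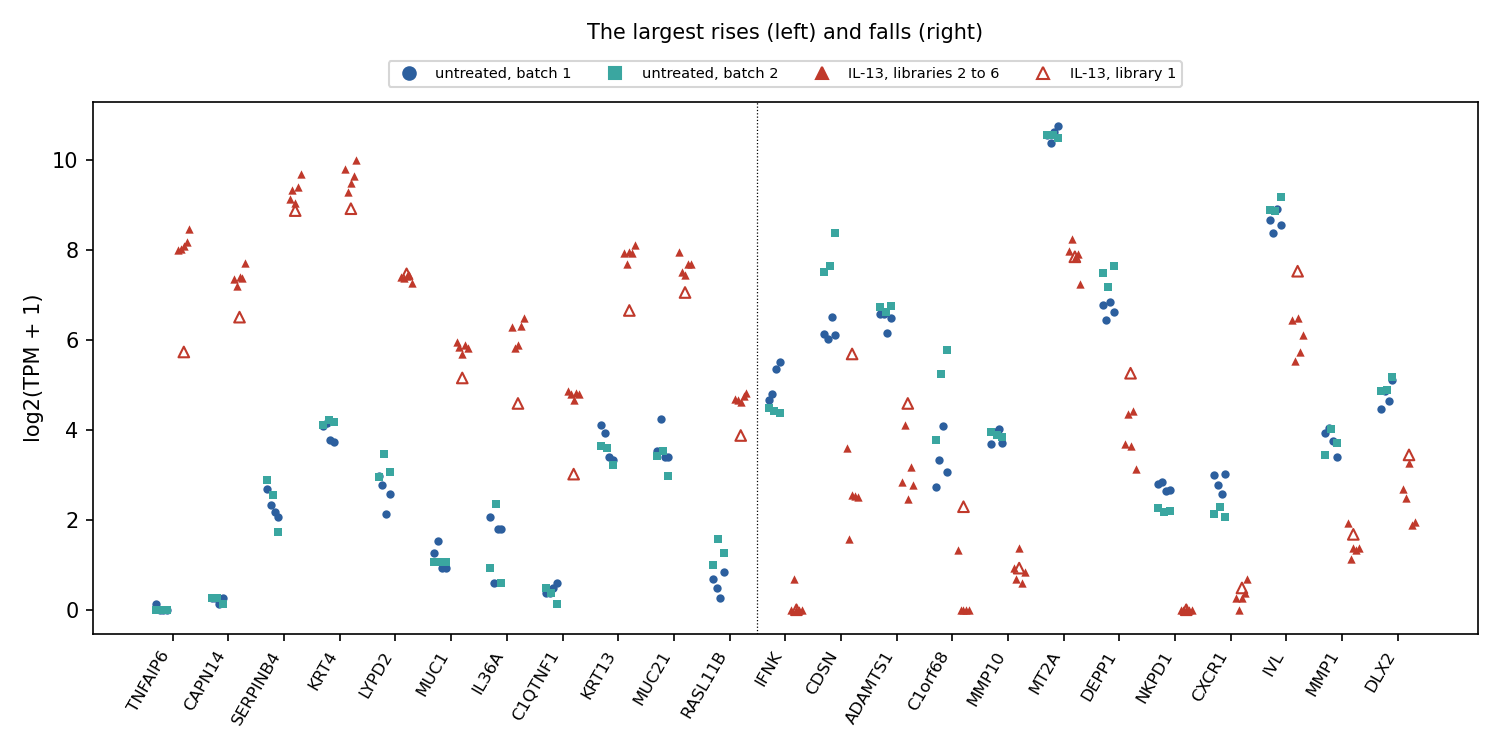
log2(TPM + 1) in each library of the largest rises and falls, named from the 12 of each that passed the test, did not overlap between groups and also passed without IL-13 library 1. Symbols give untreated libraries by batch and treated libraries, with IL-13 library 1 open. IL-13 library 1 lies between the groups for TNFAIP6, C1QTNF1, CDSN and C1orf68.

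Surface mucins were among the other largest rises. The 12 largest rises and 12 largest falls were picked from genes without overlap. For these genes, KRT4 and KRT13 included, the separation of the groups was thus given by the selection. The transmembrane mucin MUC1 stood at 34.7 to 61.1 TPM with IL-13 (median 56.2) and 0.9 to 1.9 TPM without (median 1.1), a change of 4.58 ± 0.14 (adjusted p = 3.7e-11). MUC21, a mucin of squamous surfaces, stood at 132 to 249 TPM with IL-13 (median 193) and 6.9 to 18.1 TPM without (median 9.7), a change of 3.97 ± 0.18 (adjusted p = 1.5e-09). A further mucin, MUC20, rose from a lower level (3.5 to 6.4 against 0.6 to 1.3 TPM, 1.77 ± 0.14). All 3 mucins were higher in every treated library. LYPD2, a small LY6-family surface protein, stood at 154 to 177 TPM with IL-13 (median 171) and 3.4 to 10.0 TPM without (median 6.8), a change of 4.70 ± 0.13 (adjusted p = 1.4e-11). Of the rises shown in the plot of the largest changes it was the only 1 in which IL-13 library 1 was the highest treated library. IL36A, an interleukin 1 family alarmin, rose by 4.38 ± 0.38 (23.1 to 88.4 against 0.5 to 4.1 TPM). The secreted C1q-like protein C1QTNF1 (7.1 to 28.2 against 0.1 to 0.5 TPM, 4.06 ± 0.27) and the Ras-like protein RASL11B (13.7 to 27.1 against 0.2 to 2 TPM, 3.88 ± 0.17) also rose without overlap.

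The largest fall was that of IFNK, an interferon made by keratinocytes. It was listed at 0 in most treated libraries, with a highest value of 0.6 TPM, and stood at 19.7 to 44.4 TPM (median 24.3) untreated (-4.86 ± 0.16, adjusted p = 7.0e-11). NKPD1 was listed at 0 in all 6 treated libraries and stood at 3.5 to 6.2 TPM (median 5.2) untreated (adjusted p = 3.3e-12). The metallothionein MT2A, a zinc-binding protein, fell from a high level and stood at 152 to 304 TPM with IL-13 (median 235) and 1329.8 to 1746 TPM without (median 1506). Its change was -2.73 ± 0.13 (adjusted p = 4.5e-09). Matrix proteases fell, without overlap as the selection required. They were ADAMTS1 (4.5 to 23.1 against 70.3 to 108 TPM, -3.17 ± 0.31), MMP10 (0.5 to 1.6 against 11.8 to 15.3 TPM, -2.96 ± 0.12) and MMP1 (1.2 to 2.8 against 9.5 to 15.4 TPM, -2.30 ± 0.15). DEPP1, a target of FOXO factors, fell (7.8 to 37.4 against 86.3 to 198 TPM, -2.72 ± 0.28). So did CXCR1, an interleukin 8 receptor (0 to 0.6 against 3.2 to 7.1 TPM, -2.39 ± 0.12), and the homeobox factor DLX2 (2.7 to 9.9 against 21 to 35.2 TPM, -2.19 ± 0.25). CDSN, C1orf68 and IVL, also among the 12, are cornified envelope genes.

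Squamous differentiation genes moved in both directions. KRT4 and KRT13 are the keratin pair of suprabasal esophageal cells. KRT4 (chr12:52806549-52814551) stood at 485 to 1034 TPM with IL-13 (median 764) and 12.3 to 17.7 TPM without (median 16.3), a change of 5.56 ± 0.16 (adjusted p = 1.4e-11). KRT13 (chr17:41500981-41505705) stood at 100.1 to 278 TPM with IL-13 (median 244) and 8.3 to 16.2 TPM without (median 11.2), a change of 4.06 ± 0.23 (adjusted p = 2.2e-08). In both, every treated library was far above the untreated range. KRT1 and KRT10, the pair of suprabasal epidermis, moved the other way. KRT10 stood at 386 to 658 TPM with IL-13 (median 459.5) and 1242 to 1686 TPM without (median 1326), a change of -1.57 ± 0.14 (adjusted p = 2.2e-06). KRT1 fell (12 to 77.7 against 45.6 to 137 TPM, -1.54 ± 0.36), with an overlap through IL-13 library 1, at 77.7 TPM. It was not called with all 32 libraries in the fit.

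Of 27 tested genes of the suprabasal list 10 rose and 7 fell, with a median of -0.03 against 0.17 over all genes, and 11 fell without IL-13 library 1. The keratin KRT78 (97.8 to 168 against 46.6 to 59.2 TPM, 1.38 ± 0.12) and the esophageal surface protein CLCA4 (2.2 to 12.9 against 0.8 to 1.6 TPM, 1.88 ± 0.26) rose without overlap. KRT80 fell (46 to 90.6 against 96.3 to 130.0 TPM, -0.90 ± 0.14), though not with all 32 libraries in the fit. KRT6A and KRT16 are keratins of stressed and wounded epithelium and among the most abundant transcripts. KRT6A stood at 28828 to 49441 TPM with IL-13 (median 30376) and 31795 to 44394 TPM without (median 37785) and did not pass (-0.10 ± 0.13, adjusted p = 0.54). KRT16 stood at 21468 to 40669.7 TPM with IL-13 (median 24119) and 27752 to 35876 TPM without (median 35069) and did not pass either (-0.32 ± 0.14, adjusted p = 0.083). IL-13 library 1 was the highest of all 13 libraries in both. Without it both were called lowered, at -0.22 and -0.45, and after quantile normalization KRT6A stood at 0.012. With that library kept, both were called lowered with library weights, at -0.23 and -0.47. KRT16 was also called lowered without the batch term and with mitochondrial genes removed.

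Of 46 tested cornified envelope genes 9 rose and 22 fell (rescaled 6 and 22), with a median of -0.52 against 0.17 over all genes. The groups did not overlap for 5 of the rises and 8 of the falls, beside 1130 higher and 470 lower genes among all 10989. CRNN, cornulin, a marker of esophageal differentiation, stood at 927 to 1707 TPM with IL-13 (median 1216) and 129 to 289 TPM without (median 212), a change of 2.37 ± 0.16 (adjusted p = 1.3e-07). SPRR3, the abundant small proline-rich protein of the esophagus, stood at 10043 to 16202 TPM with IL-13 (median 13252) and 3395 to 5101 TPM without (median 4239), a change of 1.65 ± 0.12 (adjusted p = 2.7e-07). The transglutaminase TGM3, which cross-links the envelope, rose too (11 to 20.9 against 3.4 to 7.9 TPM, 1.30 ± 0.15). The 3 were higher in every treated library than in any untreated one. SPRR2F (11.9 to 46.1 against 1.5 to 9.7 TPM) and repetin, RPTN (134 to 427 against 70.2 to 142 TPM), rose from lower levels, RPTN with an overlap. Hornerin, HRNR, a relative of filaggrin named after its values were seen, rose at a low level, with an overlap (1.1 to 3.4 against 0.5 to 1.3 TPM, 0.71 ± 0.18). The plakin PPL rose slightly (0.44 ± 0.076) and did not pass after rescaling.

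Other envelope genes fell. CDSN, corneodesmosin, which holds cornified cells together (chr6:31115090-31120446), stood at 2 to 50.7 TPM with IL-13 (median 4.85) and 64.4 to 332 TPM without (median 90.2). The change was -3.39 ± 0.53 (adjusted p = 0.00023). IL-13 library 1 stood at 50.7 TPM and the other treated libraries at 2 to 11.1 TPM. LCE1A (0 to 38.6 against 16.8 to 296 TPM, -3.10 ± 0.74) and LCE2B (0 to 4.9 against 4.1 to 13.2 TPM, -2.39 ± 0.39) are late cornified envelope proteins. LORICRIN is the main envelope protein of epidermis (0 to 3.7 against 2.7 to 9.5 TPM, -1.73 ± 0.34). These 3 also fell, with IL-13 library 1 alone of the treated libraries inside the untreated range. The envelope gene C1orf68 was listed at 0 in most treated libraries, with a highest value of 3.9 TPM, and stood at 5.6 to 54.3 TPM (median 12.8) untreated (-2.97 ± 0.45). Involucrin, IVL, an early envelope scaffold (chr1:152908545-152911886), stood at 45.2 to 184 TPM with IL-13 (median 77.2) and 336 to 578 TPM without (median 466), a change of -2.38 ± 0.27 (adjusted p = 1.4e-05). In untreated spheroids 26 of the 46 envelope genes differed between batches, 21 higher and 5 lower in batch 2. The part of batch in the values of IL-13 library 1 was not tested.

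Filaggrin, FLG, which bundles keratin filaments, stood at 2 to 4.3 TPM with IL-13 (median 2.65) and 5.6 to 9.2 TPM without (median 7.6), a change of -1.07 ± 0.13 (adjusted p = 3.2e-05). FLG2 fell as well, and its groups met at 4.4 TPM (1.4 to 4.4 against 4.4 to 8.5 TPM, -1.11 ± 0.19). The transglutaminase TGM1 fell (143 to 228 against 287 to 425 TPM, adjusted p = 2.0e-05), opposite to TGM3. SPRR2E (154 to 276 against 359.5 to 584 TPM, -1.18 ± 0.17) and the calprotectin subunit S100A8 (3584 to 7057 against 8537 to 11361 TPM, -0.97 ± 0.15) fell without overlap but were not called with all 32 libraries in the fit. SPRR1A (-0.60 ± 0.17) and SPRR1B (-0.64 ± 0.18) fell with overlap. Both were called neither against untreated batch 1 alone nor with all 32 libraries in the fit, and SPRR1B not after quantile normalization. CRNN (chr1:152409243-152414263), SPRR3 (chr1:153001747-153003856), FLG (chr1:152302175-152325203), LCE1A (chr1:152827473-152827894) and IVL all lie in the epidermal differentiation complex of chromosome 1. Genes of 1 cluster thus moved in both directions. Small proline-rich and late cornified envelope genes have close paralogs, and the values of single members are uncertain.

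**Figure D4:**
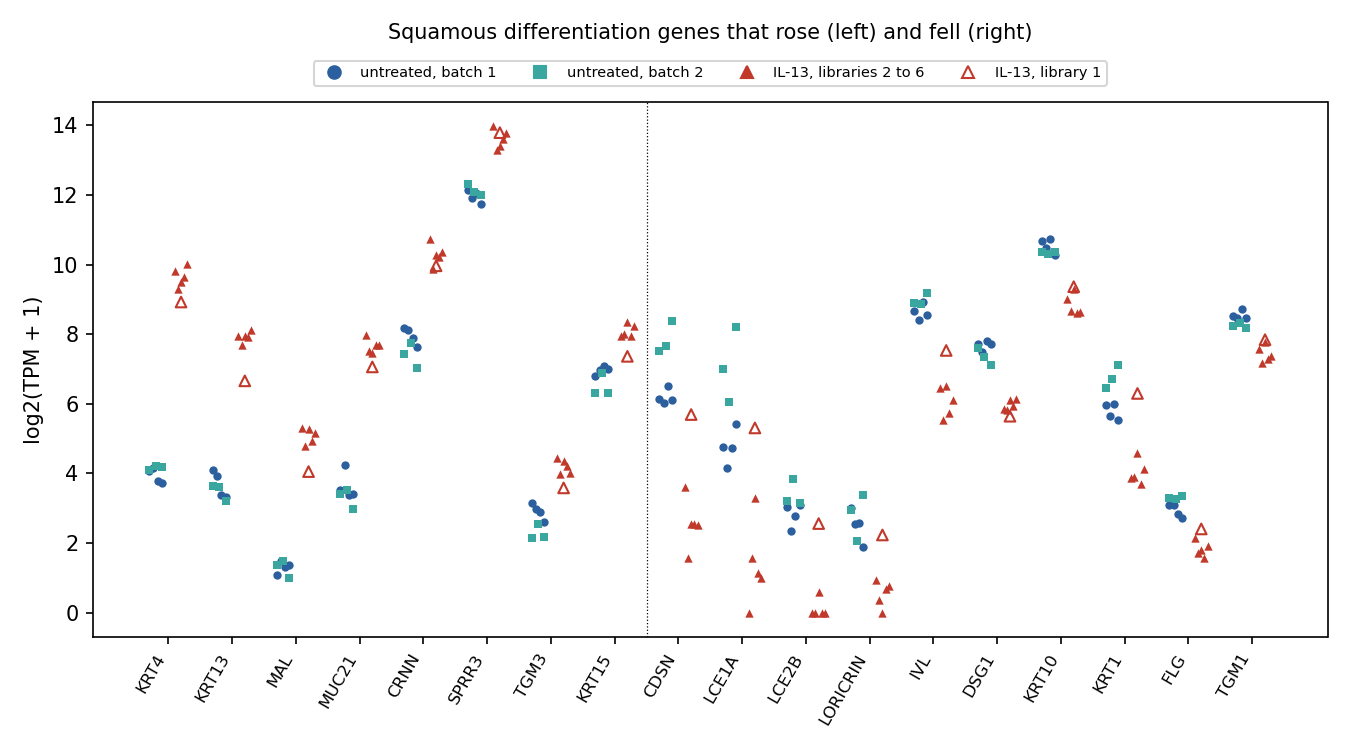
log2(TPM + 1) in each library for 8 differentiation and basal genes that rose (left) and 10 differentiation genes that fell (right). Untreated libraries are shown by batch and IL-13 library 1 is open. KRT4 stands at 485 to 1034 TPM with IL-13 against 12.3 to 17.7 TPM, and IL-13 library 1 lies near the untreated libraries for KRT1, LCE1A, LCE2B and LORICRIN.

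The list of genes known to be lowered in eosinophilic esophagitis did not move one way. Of 25 tested, 11 rose and 9 fell (rescaled 7 and 9), with a median of 0.02. This list shares a gene that rose with the list raised by IL-13 or in eosinophilic esophagitis. That gene is counted as a rise in both. Rises included KRT4, KRT13, CRNN and SPRR3. MAL, a protein of apical membrane rafts, stood at 15.6 to 38.9 TPM with IL-13 (median 31.9) and 1 to 1.8 TPM without (median 1.6), a change of 3.61 ± 0.19 (adjusted p = 1.1e-08). Falls included IVL, FLG and FLG2. The desmosomal cadherin DSG1 stood at 49 to 70.0 TPM with IL-13 (median 58.1) and 137 to 224 TPM without (median 194), a change of -1.71 ± 0.11 (adjusted p = 6.2e-08). The endonuclease ENDOU fell too (1.6 to 4.9 against 7.2 to 19.4 TPM, -2.02 ± 0.17). MAL, DSG1 and ENDOU separated the groups. The protease inhibitor SPINK5 did not pass (22.3 to 44.6 against 22.8 to 41.2 TPM, 0.016 ± 0.15, adjusted p = 0.94). Nor did SPINK7 (113 to 361 against 165 to 387 TPM, -0.50 ± 0.24, adjusted p = 0.11). It was called lowered without IL-13 library 1 (-0.73), without the batch term (-0.66), against untreated batch 2 alone (-1.02) and with library weights (-0.81).

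Barrier lipid enzymes fell: 13 of 23 tested were lowered and 4 raised (rescaled 15 and 2), with a median of -0.57. In 11 of the falls the groups did not overlap, beside 470 such genes among all 10989. CYP4F22, SDR9C7 and ALOX12B act in the pathway that links acylceramides to the cornified envelope. CYP4F22 fell (0.7 to 2.3 against 7.2 to 10.5 TPM, -2.08 ± 0.14). SDR9C7 (7.9 to 17.5 against 39.5 to 58.4 TPM, -1.91 ± 0.16) and ALOX12B (18.3 to 25.9 against 57.3 to 96.4 TPM, -1.79 ± 0.11) fell with it. ELOVL4, which elongates very long fatty acids, also fell (6 to 8.5 against 16.3 to 22.9 TPM, -1.26 ± 0.10). The lipase LIPM fell from a low level (0.1 to 0.4 against 1.4 to 2.8 TPM, -1.27 ± 0.11). None of these 5 overlapped between groups. The membrane protease ST14, counted in this list, rose without overlap (22.5 to 31.7 against 16.8 to 19.9 TPM, 0.44 ± 0.086).

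Of 36 tested junction genes 6 rose and 12 fell (rescaled 4 and 18), with a median of -0.02. Leaving out IL-13 library 1, 14 rose, beside 5811 of all 10989 genes. Among desmosomal cadherins DSC2, like DSG1, fell (98.7 to 124 against 232 to 310.3 TPM, -1.22 ± 0.078), and DSC3 rose (158 to 228 against 121 to 152 TPM, 0.53 ± 0.092). The tight junction protein CLDN7 rose (67.9 to 158 against 28 to 76.7 TPM, 1.09 ± 0.19), with an overlap in IL-13 library 1. CLDN17 rose (145 to 245 against 98.3 to 138 TPM, 0.66 ± 0.13), though not with all 32 libraries in the fit. The adherens junction protein NECTIN4 fell (34.3 to 62.6 against 74.2 to 90.9 TPM, -0.83 ± 0.13).

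Basal layer genes moved in both directions. Of 19 tested 7 rose and 5 fell (31.7% and 9.45% over all genes), with a median of 0.15, close to that of all genes. The stem cell factor SOX2 stood at 108 to 165 TPM with IL-13 (median 139) and 33.5 to 59 TPM without (median 47.6), a change of 1.50 ± 0.12 (adjusted p = 5.6e-07). TP63, the master regulator of squamous cells, stood at 14.4 to 24.6 TPM with IL-13 (median 21.9) and 10.4 to 12.5 TPM without (median 12.1), a change of 0.74 ± 0.11 (adjusted p = 0.00016). BCAM, a laminin receptor (53.6 to 85.9 against 19.6 to 26.7 TPM, 1.65 ± 0.12), and the basal keratin KRT15 (164 to 324 against 78 to 134 TPM, 1.09 ± 0.15) rose as well. None of the 4 overlapped between groups. Laminin chains of the basement membrane fell. LAMA3 (19.2 to 29.6 against 39.1 to 48.4 TPM, -0.91 ± 0.10) and LAMB3 (152 to 221 against 311 to 356 TPM, -0.86 ± 0.088) fell without overlap. The receptor chain ITGB4 fell with them (109.6 to 189.9 against 207 to 257 TPM, -0.62 ± 0.12), again without overlap.

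Cell cycle genes rose in 20 of 26 tested and fell in 1, with a median of 0.63. Only 1 gene, a rise, separated the groups, beside 14.6% of all genes. MKI67, a proliferation marker, stood at 0.8 to 5 TPM with IL-13 (median 3.5) and 0.6 to 1.4 TPM without (median 1.1), a change of 1.00 ± 0.23 (adjusted p = 0.0042). The licensing factor MCM2 (1.7 to 5 against 1 to 1.7 TPM, 1.09 ± 0.18) rose. So did the mitotic regulator CDC20 (3.1 to 9.8 against 1.2 to 4.6 TPM, 1.01 ± 0.26) and BIRC5, survivin (1.5 to 8.6 against 1.5 to 2.7 TPM, 1.11 ± 0.28). In all 4 IL-13 library 1 lay within or at the edge of the untreated range, whereas IL-13 libraries 2 to 6 lay above it. Without that library 25 of 26 rose. In untreated spheroids 9 of the 26 differed between batches, all 9 lower in batch 2. CCND1, cyclin D1, which carries cells into the cycle, was the gene without overlap (31.9 to 44.6 against 20.3 to 23.4 TPM, 0.84 ± 0.08). The gene called lowered was CCNE2, cyclin E2 (-0.28 ± 0.10). That call was lost without any 1 of untreated libraries 1, 2 and 3 and IL-13 libraries 4 and 6, against either untreated batch alone and with all 32 libraries. Of 17 tested genes of cell cycle exit 2 rose and 5 fell (rescaled 0 and 8).

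Of 31 tested squamous transcription factors 10 rose and 16 fell (rescaled 7 and 18), with a median of -0.24. GATA3, a factor of type 2 lymphocytes and of stratified epithelium, stood at 3.7 to 9.6 TPM with IL-13 (median 7.75) and 0.2 to 0.4 TPM without (median 0.3), a change of 2.69 ± 0.16 (adjusted p = 4.7e-08). ELF3, an epithelial ETS factor, rose (24 to 36.7 against 4.6 to 13.5 TPM, 1.94 ± 0.13). The inhibitors of DNA binding did not move together. ID3 rose (725 to 1042 against 320.2 to 516 TPM, 1.17 ± 0.10), and ID1 (656 to 945 against 985 to 1812 TPM, -0.99 ± 0.10) and ID2 (35 to 80.7 against 88.6 to 138 TPM, -1.22 ± 0.18) fell. KLF4 (318 to 483 against 616 to 674 TPM, -0.72 ± 0.091) and OVOL1 (42.5 to 58.4 against 78 to 96.4 TPM, -0.78 ± 0.094), drivers of late epidermal differentiation, were lower. The groups did not overlap in any of these 7 genes, and KLF4 alone of them was not called with all 32 libraries in the fit. Of 17 tested Notch pathway genes 5 rose and 6 fell, with a median of -0.17.

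Proteases and inhibitors of squamous epithelium moved in both directions, 13 raised and 12 lowered of 37 tested, with a median of 0.02. Over all genes 31.7% were raised and 9.45% lowered. Beside SERPINB3, SERPINB4 and CTSC, the serpin SERPINB11 (5.4 to 14 against 1.2 to 2.3 TPM, 1.93 ± 0.16) and the serine protease PRSS27 (13 to 27.2 against 3.2 to 6.3 TPM, 1.85 ± 0.16) rose. Kallikreins, which cut desmosomal proteins at the surface, split. KLK7 (329.8 to 529.9 against 184 to 245 TPM, 0.92 ± 0.11) and KLK12 (110.4 to 151 against 49.3 to 80.2 TPM, 1.01 ± 0.11) rose. KLK5, which activates other kallikreins, stood at 41 to 68.7 TPM with IL-13 (median 43) and 163 to 196 TPM without (median 184), a change of -1.93 ± 0.12 (adjusted p = 3.9e-08). The groups of all 3 kallikreins were separate. The cystatin CST6 fell with overlap (27.5 to 71.1 against 70.9 to 165 TPM, -1.31 ± 0.19). 

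Of 11 tested calpains 5 rose and 2 fell. After CAPN14 the largest rise was that of CAPN5, at a low level (1.1 to 1.7 against 0.2 to 0.5 TPM, 0.85 ± 0.078). The largest fall was that of the small regulatory subunit CAPNS2 (377 to 588 against 528 to 702 TPM, -0.50 ± 0.10), not called with all 32 libraries in the fit.

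Genes of wound edges fell in 13 of 22 tested and rose in 6, with a median of -0.58. Target genes of TGF-beta and YAP fell in 13 of 21 and rose in 5 (rescaled 13 and 3), with a median of -0.41. Beside MMP1 and MMP10, TGFBI, a matrix protein induced by TGF-beta, fell (146 to 243 against 379 to 509 TPM, -1.30 ± 0.12). INHBA, a subunit of activin, fell (5.7 to 8.8 against 14.8 to 22.3 TPM, -1.24 ± 0.11). SKIL, a brake on SMAD signalling (9 to 13.5 against 23.3 to 34.4 TPM, -1.30 ± 0.12), and the morphogen BMP2 (13.4 to 39.3 against 47.4 to 102 TPM, -1.38 ± 0.21) did as well. All 4 fell without overlap. Hyaluronan and matrix genes were split, 8 raised and 9 lowered of 21 tested, beside 31.7% and 9.45% over all genes. The collagen cross-linker LOX stood at 15.4 to 23.4 TPM with IL-13 (median 18.6) and 0.9 to 2.9 TPM without (median 2), a change of 2.89 ± 0.13 (adjusted p = 1.3e-09). Tenascin C, TNC (21.8 to 48.3 against 3.9 to 9.9 TPM, 2.25 ± 0.18), and the metalloprotease inhibitor TIMP2 (5 to 7.3 against 1.7 to 3 TPM, 1.24 ± 0.094) rose, and the protease MMP3 fell (0.2 to 0.6 against 2.3 to 3.9 TPM, -1.56 ± 0.11). The groups did not overlap in these 4 genes either.

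Immediate early genes fell in 8 of 18 tested and rose in 3 (rescaled 12 and 2). IER3 (557 to 1038 against 1666 to 2169 TPM, -1.29 ± 0.13) and the AP-1 subunit FOSL1 (9.1 to 22.3 against 22.6 to 51.9 TPM, -1.27 ± 0.18) fell without overlap. FOS fell with overlap (44.9 to 138 against 107 to 395 TPM, -1.68 ± 0.22) and was called neither against untreated batch 2 alone nor with all 32 libraries in the fit. The zinc finger factor KLF2 rose without overlap (12.8 to 25.8 against 2.1 to 5.3 TPM, 1.91 ± 0.17). A second such factor, EGR1, rose by 1.07 ± 0.23, with IL-13 library 1 at 194 TPM inside the untreated range and the other treated libraries at 379.5 to 477 TPM.

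Among epithelial cytokines 3 rose and 6 fell of 19 tested (rescaled 3 and 11), with a median of -0.28, and 5 rose without IL-13 library 1. TSLP, the alarmin that starts type 2 responses, stood at 1.3 to 4 TPM with IL-13 (median 2.85) and 1.3 to 5.4 TPM without (median 2.6) and did not pass (-0.23 ± 0.19, adjusted p = 0.34). Its sign turned to 0.036 without the batch term and to 0.62, called raised, against untreated batch 2 alone. The inflammatory cytokines IL1B (22.4 to 42 against 51.7 to 83.6 TPM, -1.16 ± 0.13) and TNF (0.6 to 2.3 against 3.1 to 16.7 TPM, -1.53 ± 0.25) fell without overlap. CSF2, the granulocyte-macrophage factor, was listed at 0 in most treated libraries, with a highest value of 0.3 TPM, and stood at 0.3 to 3.5 TPM (median 2.8) untreated. Beside IL36A, the interleukin 1 antagonist IL1RN (184 to 233 against 121 to 168 TPM, 0.53 ± 0.083) and the death ligand TNFSF10 (91.3 to 139.8 against 60.7 to 85.3 TPM, 0.67 ± 0.11) rose without overlap.

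Of 9 tested epithelial chemokines 5 rose and 1, CXCL1, fell, and 2 fell without IL-13 library 1. CXCL14 (19 to 35.6 against 5.6 to 15.5 TPM, 1.60 ± 0.13), CXCL16 (25.7 to 43.7 against 11.2 to 19.1 TPM, 1.26 ± 0.14) and CXCL17 (2 to 6.3 against 0.3 to 2.1 TPM, 1.26 ± 0.20) attract monocytes, dendritic cells or T cells. They rose, and CXCL17 alone of the 3 overlapped between groups, through IL-13 library 1. Of 16 tested antimicrobial and acute phase genes 3 rose and 7 fell. The calcium-binding protein S100P rose (175 to 265 against 40.0 to 91.7 TPM, 1.93 ± 0.19). The acute phase protein SAA1 (5.2 to 15.1 against 0.7 to 2.5 TPM, 1.86 ± 0.24) and LCN2, lipocalin 2, which binds bacterial siderophores (236 to 373 against 83.3 to 186 TPM, 1.10 ± 0.14), rose too. The beta-defensin DEFB1 fell without overlap (0.9 to 2.5 against 4.1 to 7.7 TPM, -1.45 ± 0.14). The ribonuclease RNASE7 fell (61.6 to 301 against 156 to 431 TPM, -1.05 ± 0.32), with IL-13 library 1 inside the untreated range, and was not called against untreated batch 1 alone.

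Interferon-stimulated genes rose in 13 of 25 tested and fell in 4, with a median of 0.48, and 16 rose without IL-13 library 1. The rises were led by genes of antigen presentation and its regulator IRF1. The immunoproteasome subunit PSMB9 rose (6.8 to 17.5 against 3.5 to 6.5 TPM, 1.49 ± 0.19). The class I molecule HLA-B stood at 443 to 764 TPM with IL-13 (median 677) and 223 to 337 TPM without (median 294), a change of 1.10 ± 0.12 (adjusted p = 9.0e-06). IRF1 rose as well (1.4 to 5.7 against 0.7 to 1.6 TPM, 1.29 ± 0.22) and overlapped through IL-13 library 1. HLA genes are variable and close paralogs, so single values are uncertain. The antiviral genes IFITM1 (3.8 to 15.5 against 14.6 to 33.1 TPM, -1.13 ± 0.29) and IFI6 (7 to 29.3 against 22 to 47.4 TPM, -1.09 ± 0.26) fell with overlap. Neither was called with all 32 libraries in the fit, nor IFI6 against untreated batch 2 alone. In untreated spheroids 8 of the 25 genes differed between batches, all 8 lower in batch 2.

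**Figure D5:**
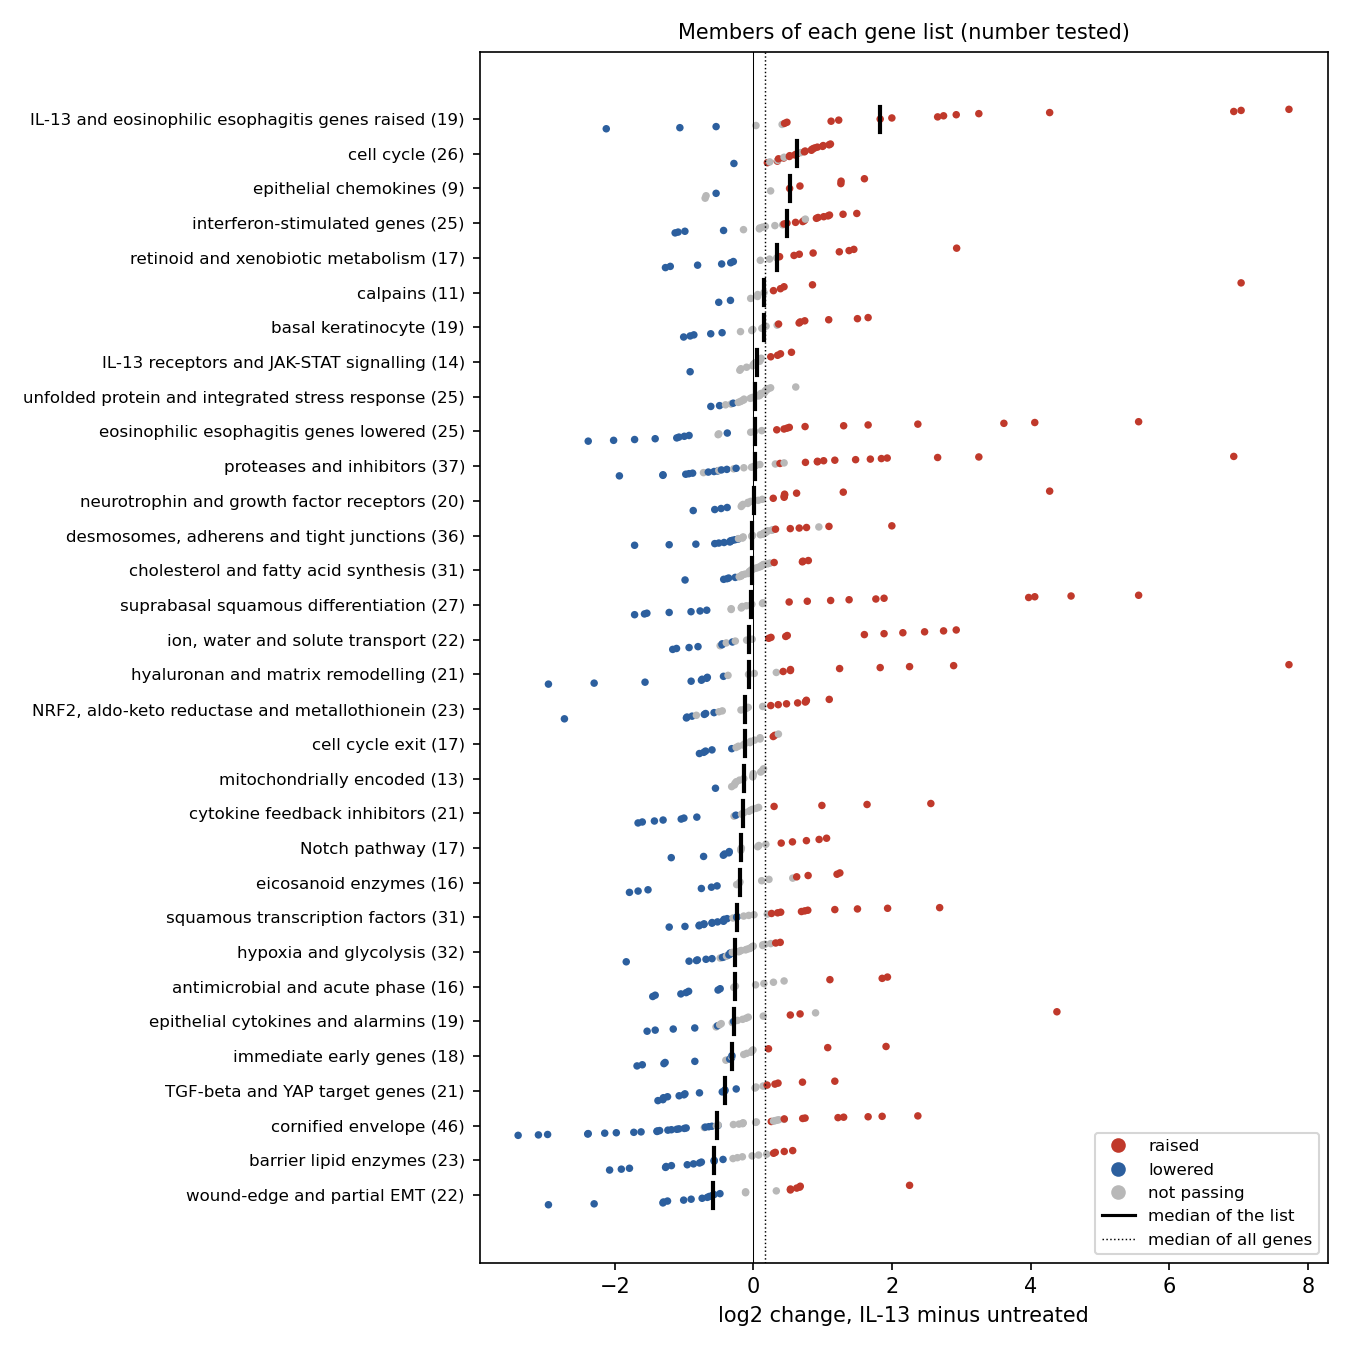
Log2 change of each tested member of the gene lists with at least 5 tested genes, with the number tested after the name. Red, blue and grey points are raised, lowered and not passing genes. Black bars mark list medians, from -0.58 for wound-edge genes to 1.83 for the list raised by IL-13 or in eosinophilic esophagitis, and the dotted line marks the median of all genes, 0.17.

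Of 22 tested genes of ion, water and solute transport 10 rose and 7 fell (rescaled 8 and 11). Beside ANO1 and CA2, the proton pump ATP12A rose, at 44.7 to 58.5 TPM with IL-13 (median 52.1) and 6.9 to 13 TPM without (median 9.3), a change of 2.47 ± 0.095 (adjusted p = 2.9e-10). The sodium-proton exchanger SLC9A3 (43.3 to 61.7 against 9.1 to 20.0 TPM, 2.16 ± 0.13) and the water and glycerol channel AQP3 (285 to 512 against 97.2 to 149 TPM, 1.60 ± 0.12) rose. Of the subunits of the epithelial sodium channel, SCNN1B (1.8 to 2.7 against 4.4 to 6 TPM, -0.93 ± 0.092) and SCNN1G (0.2 to 0.6 against 1.3 to 3 TPM, -1.11 ± 0.13) fell. SCNN1A, named after its values were seen, was called raised by a smaller amount (16.1 to 17.6 against 11.9 to 15.9 TPM, 0.22 ± 0.071). That call was lost after rescaling, with quantile normalization, with mitochondrial genes removed, against untreated batch 1 alone, with all 32 libraries in the fit, and without untreated library 5 or IL-13 library 2. The calcium channel TRPV3 fell too (1.5 to 3.6 against 5.2 to 9.3 TPM, -1.16 ± 0.15). No overlap was seen in any gene named from this list.

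Outside the lists, and chosen after their values were seen, the dual oxidases that make hydrogen peroxide at the epithelial surface rose with their maturation factors. DUOX1 (56.4 to 98.1 against 16.6 to 22.9 TPM, 2.08 ± 0.13) and DUOX2 (12.9 to 20.1 against 1.8 to 2.8 TPM, 2.52 ± 0.10) are the oxidases. DUOXA1 (96.2 to 215 against 26.7 to 34.1 TPM, 2.57 ± 0.17) and DUOXA2 (40.6 to 59 against 3.4 to 11.8 TPM, 2.86 ± 0.20) are the maturation factors. None overlapped between groups. These 4 genes lie next to one another on chromosome 15, DUOX2 at chr15:45092650-45114344 and DUOX1 at chr15:45129933-45165576.

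Of 16 tested eicosanoid enzymes 4 rose and 6 fell. The lipoxygenase ALOX15B (71.6 to 141 against 31.2 to 58.7 TPM, 1.25 ± 0.15) and LTA4H, which makes leukotriene B4 (33.2 to 48 against 15.3 to 17.9 TPM, 1.21 ± 0.081), rose. PTGS2, the inducible cyclooxygenase, fell (1.1 to 4.3 against 7 to 12.1 TPM, -1.66 ± 0.18). The groups of all 3 were separate. Retinoid and xenobiotic genes rose in 8 of 17 tested and fell in 6. Targets of the aryl hydrocarbon receptor led the rises, CYP1B1 (2.93 ± 0.31) and CYP1A1 (6.7 to 16.7 against 2.1 to 5.1 TPM, 1.45 ± 0.20). In CYP1B1 IL-13 library 1 stood at 4.1 TPM, the other treated libraries at 18.8 to 20.9 TPM and the untreated ones at 0.2 to 1.8 TPM. The glucuronosyltransferase UGT1A1 rose (13.6 to 29.8 against 4.6 to 9.4 TPM, 1.38 ± 0.16), and it shares exons with other genes of its locus, so its value is uncertain.

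In the NRF2, aldo-keto reductase and metallothionein list 8 rose and 7 fell of 23 tested (rescaled 5 and 12), and 11 fell with IL-13 libraries 2 to 6 against untreated batch 1 alone. The heme oxygenase HMOX1 rose with overlap (9.5 to 16.3 against 4.2 to 12.5 TPM, 1.09 ± 0.16). The aldo-keto reductase AKR1C2 fell (8.4 to 15.6 against 19.9 to 27.1 TPM, -0.97 ± 0.13), beside MT2A. Hypoxia and glycolysis genes fell in 12 of 32 tested and rose in 2 (rescaled 17 and 0), with a median of -0.26, and without IL-13 library 1 18 fell. The hexokinase HK2 (27.9 to 128 against 155 to 307 TPM, -1.84 ± 0.28) and NDRG1 (457 to 864 against 876 to 1145 TPM, -0.60 ± 0.13), both induced by hypoxia, fell without overlap, NDRG1 not with all 32 libraries in the fit. Of the 32 genes 16 differed between batches in untreated spheroids, 2 of them lower in batch 2.

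The counts of the stress response list differed between settings. Of 25 tested genes of the integrated stress and unfolded protein responses 0 rose and 3 fell (rescaled 0 and 9). Without IL-13 library 1, 11 rose and 3 fell, beside 5811 and 1208 of all 10989 genes. Between untreated batches 22 of the 25 differed, 21 of them lower in batch 2. PPP1R15A, which restores translation after stress, was among the falls (284 to 427 against 459 to 737 TPM, -0.62 ± 0.10), though not with all 32 libraries in the fit. Cholesterol and fatty acid genes rose in 4 and fell in 5 of 31 (rescaled 3 and 13). Of these genes 8 rose without IL-13 library 1, beside 5811 of all 10989. Neurotrophin and growth factor receptors rose in 8 and fell in 4 of 20 (rescaled 6 and 9), beside 31.7% and 9.45% over all genes. Of the 13 mitochondrially encoded genes 0 rose and 1, MT-CYB, fell in limma (rescaled 0 and 5), a call lost without untreated library 2 and against untreated batch 2 alone.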

How the data were processed

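Total RNA of EPC2 monolayers and spheroids was sequenced. The authors deposited 1 table of TPM values for 19345 gene symbols and 32 libraries, rounded to 1 decimal. Per the submitters' processing notes the genome build was hg38. Which aligner, quantifier, annotation and strand setting were used is not given in the sources used here. Because TPM does not keep depth, precision comes only from the spread of the libraries, and a rise of abundant transcripts lowers the values of all others. A value of 0 can be a failed estimate, so no fold is given against a group listed at 0 throughout.

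The 7 untreated D11 columns were matched to samples by title and the 6 IL-13 columns to their group only. Values were taken as log2(TPM + 1), and genes were kept that reached 1 TPM in at least 6 of the 13 D11 libraries. These 13 libraries were fitted in limma 3.58.1 (R 4.3.3) with an intensity trend, with treatment and batch as terms and each IL-13 library given its group's share of batch 2, 1 of 6. P-values were adjusted by Benjamini-Hochberg at a threshold of 0.05, and fold thresholds of 2 and 4 apply to the fitted change. Shares of TPM were compared by an exact permutation test of 1716 arrangements, adjusted over both shares. No pair of libraries of a group agreed exactly in more than 1.97% of genes (those averaging 10 TPM or more), and each counted as its own sample. The fit was also run on simulated data, and no outcome of that run is given or used here.

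The 35 gene lists hold 869 symbols, of which 854 are in the table and 654 were tested. The comparison, the lists and the named genes were chosen with earlier results of these data known. Named genes are the 12 largest rises and 12 largest falls that passed, did not overlap and passed without IL-13 library 1, up to 4 rises and 4 falls of each list, and genes of the IL-13 response and of squamous layers named whatever their result. Other settings tried were the pseudocount, the low-value filter, the scaling, the batch term, single batches, the libraries fitted, library weights and single libraries left out. Positions are from GENCODE release 29 on hg38 and promoters from RefSeq. Plots used Python 3.11.15 with matplotlib 3.10.9. 1 part of the culture protocol and some genes that the naming rule selects are not reported here.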

Additional observations from a re-analysis of the deposited data

Results flagged for a closer look

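For 184 named genes, in each of the 2 groups, it was asked whether 1 library lay far from all others of its group, by a gap that chance gives in about 1 in 20 groups. This was so 52 times in 367 groups, and 39 times the library was IL-13 library 1. Over all genes tested, IL-13 library 1 stood apart in 1380 of 10988 genes with any spread in the treated group, and each other library in 16 to 121. In TPM, IL-13 library 1 was low for genes that IL-13 raised: TNFAIP6 (52.3), CDH26 (1.9), POSTN (1.1), ANO1 (6.1), C1QTNF1 (7.1), RASL11B (13.7), MUC20 (3.5), GATA3 (3.7), TNC (21.8), ALOX15B (71.6), CYP1B1 (4.1) and DUOXA1 (96.2). It was also low for STAT3 (10.2), MCM2 (1.7), EGR1 (194.3), CXCL17 (2), PSMB9 (6.8), HLA-B (443.3), IRF1 (1.4) and CD14 (22.3), all called raised, and for KRT18 (42).

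The same library was high for genes that IL-13 lowered: IGFL1 (155.2), CDSN (50.7), IVL (184.2), KRT1 (77.7), LCE1A (38.6), LCE2B (4.9), LORICRIN (3.7), FLG2 (4.4), SPRR1A (26849.5), ID2 (80.7), KLK5 (68.7), RNASE7 (301.2) and HK2 (128.5). Abundant keratins were high in it as well, KRT5 at 32674.1 and KRT6A at 49440.8, and so were RPTN (426.8), CXCL14 (35.6) and SPINK7 (361.2). The change of each called gene kept its direction without that library. Whether it is the treated sample of batch 2 was not tested.

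Other libraries stood apart 13 times, in TPM. Untreated library 5 was low for CISH (27.4), library 2 for CAPNS2 (528.5) and CALHM5 (0.1), and library 4 for POSTN (0.1). Untreated libraries were high for TNFAIP6 (library 1, 0.1), MUC21 (library 2, 18.1), ELOVL4 (library 3, 22.9), SLC9A3 (library 4, 20), LCE1A (library 7, 295.8) and HMOX1 (library 7, 12.5). IL-13 library 3 was high for IFNK (0.6), and IL-13 library 4 was high for MMP10 (1.6) and low for CCNE2 (0.4). Values are rounded to 1 decimal, so the gaps of untreated libraries in TNFAIP6 and POSTN are the smallest step the rounding allows.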

How the results depend on the processing

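The number of genes changed, 4522, became 2875 against untreated libraries of batch 1 alone and 7223 with library weights, and lay between 3652 and 7019 with 1 library left out, highest without IL-13 library 1. The 3483 raised genes became 2049 with median-of-ratios scaling, 2091 with quantile normalization, 2309 with mitochondrial genes removed, 2061 against batch 1 alone and 5883 with weights, and 2763 to 5811 with 1 library left out. The 1039 lowered genes became 2244 and 2314 under the 2 scalings, and 854 to 1208 with 1 library left out. Genes raised at least 2-fold, 312, became 477 with a pseudocount of 0.1, 156 with one of 5 and 851 against batch 2 alone, and 286 to 406 with 1 library left out. Genes lowered at least 2-fold, 152, became 73 with a pseudocount of 5 and 229 with quantile normalization, and 135 to 174 with 1 library left out. The difference in keratin share turned to 0.12 percentage points against batch 1 alone, and that of mitochondrial transcripts to 0.581 without IL-13 library 1. The count of genes that differed between untreated batches, 5056, was 3794 to 4836 with 1 library left out and 3437 with median-of-ratios scaling, alternatives chosen after seeing the data. Where not stated, the cause was not tested.

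Of 175 called named genes 148 stayed on the same side of the threshold in the same direction in every one of up to 26 alternatives. Of the values of named genes, 4617 of 4751 did so, 92 lost the call, 17 gained one and 25 changed sign. The changes of sign were in KRT18 (0.074) and KRT19 (-0.016) against batch 2 alone and in genes that had not passed. KRT5 stood at -0.057 with median-of-ratios scaling and -0.10 against batch 2 alone, and was called raised with quantile normalization, at 0.40. KRT14 stood at 0.12 with quantile normalization, 0.048 against batch 1 alone, and 0.0081, 0.047, 0.0089, 0.028 and 0.054 without untreated library 3 or 5 or IL-13 library 3, 5 or 6. SPINK5 stood at -0.18 under both scalings, -0.024 with mitochondrial genes removed, -0.068 against batch 1 alone, and -0.049 to 0.15 with 1 library left out, below 0 without untreated library 3 or 5 or IL-13 library 2, 4 or 6. TSLP stood at 0.036 without the batch term, 0.62 against batch 2 alone and 0.20 with all 32 libraries. KRT6A stood at 0.012 with quantile normalization and IL13RA1 at 0.18 against batch 2 alone.

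No paired analysis was possible because the untreated and IL-13 samples share no replicate number, and the numbers of the IL-13 columns name no sample. Depth is unknown, so the smallest detectable change of low genes cannot be given.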
